A study of Rattus norvegicus with 6 samples.

Results

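Interferon-stimulated genes, the genes that cells switch on when interferon reaches them, were followed in whole lung of Lewis rats that breathed silica dust or filtered air. The list held 37 such genes. Of these, 34 had at least 1 probe set annotated to that gene alone, 43 probe sets in all, among 14217 named genes and 31042 probe sets on the arrays. The expression of Xaf1, Gbp5 and Ifi47 was not analysed here, and they enter only the promoter counts. A gene with several probe sets was represented by the one with the highest mean log2 signal over all arrays.

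Lewis is an inbred rat strain, and each array held the lung RNA of 1 animal. The silica group was 3 rats that inhaled Min-U-Sil 5, a fine crystalline silica powder, at 6.2 mg/m3, for 6 weeks, on 5 days of each week and 6 h of each day. Controls were 3 rats kept in filtered air under like conditions. No rat carried a genetic change or another agent, per the labels. The sources used here do not give sex, age or the time from the last exposure to tissue collection. Surfactant protein C (Sftpc), made by alveolar epithelium, was bright on every array, between 19545.7 and 24854.9. Of 9 measured lung epithelial and endothelial markers, none changed at an adjusted p under 0.05 (limma) and 7 had negative log2 fold changes (silica minus control), with a median of -0.13. Silica lay below control without overlap in 3 of them, Ager (-0.24), Aqp5 (-0.34) and Sftpb (-0.18), against 12.7% of all named genes. The part of this in the results was not tested. In bulk lung, more cells of a type and more RNA per cell cannot be told apart.

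Type I interferons signal through the receptor chains Ifnar1 and Ifnar2 to a complex that includes Stat2 and Irf9 and binds the interferon-stimulated response element (ISRE) in the promoters of antiviral genes such as Mx1 and Isg15. Interferon gamma, made by T cells and NK cells, signals through Ifngr1 and Ifngr2, acts on promoters at gamma-activated sites (GAS) and switches on Irf1 and the immunity-related GTPases that guard phagosomes. The 34 genes were divided into 18 targets used mostly as markers of type I interferon, 6 used mostly as markers of interferon gamma and 10 that respond to both. The division is a convention, since many of these genes answer to either cytokine.

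Interferon-stimulated genes were mostly higher in silica-exposed lungs, and the interferon gamma targets were the furthest above control. Of the 34 genes, 31 had a positive log2 fold change (silica minus control), 91.2% against 53.7% of all named genes. The median log2 fold change of the 34 was 0.36, against 0.022 over all named genes. Irf8 and Stat2 rose at an adjusted p under 0.05 (limma, over all probe sets) and none fell. Over all named genes 1.55% rose and 0.12% fell by the same rule. In 18 of the 34 genes every silica array lay above every control array, which was so for 18.7% of all named genes. In 1 gene, Socs1, every silica array lay below, which was so for 12.7% of named genes.

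Fold changes are estimates with their SE after log2(signal + 16), a scale on which dim genes seem to change less than they do. Signals are linear intensities given by array, or as mean ± SD over 3 animals per group. The 2 calls needed all 6 arrays: with any 1 array left out, no member passed the threshold. Calls over all probe sets were as sensitive, with 290 higher on all 6 arrays and 0 to 12 higher with 1 array left out, which bears equally on the other genes described here as having risen. Leaving out the dimmer 50% of probe sets gave 13 members higher, and a spread model with an intensity trend gave 12. The first shortens the list over which p is adjusted, and both refit the spread, so p itself also changes. Over all probe sets these settings gave 1044 and 1141 higher and 631 and 721 lower, so calls were more numerous throughout the array.

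**Figure D1:**
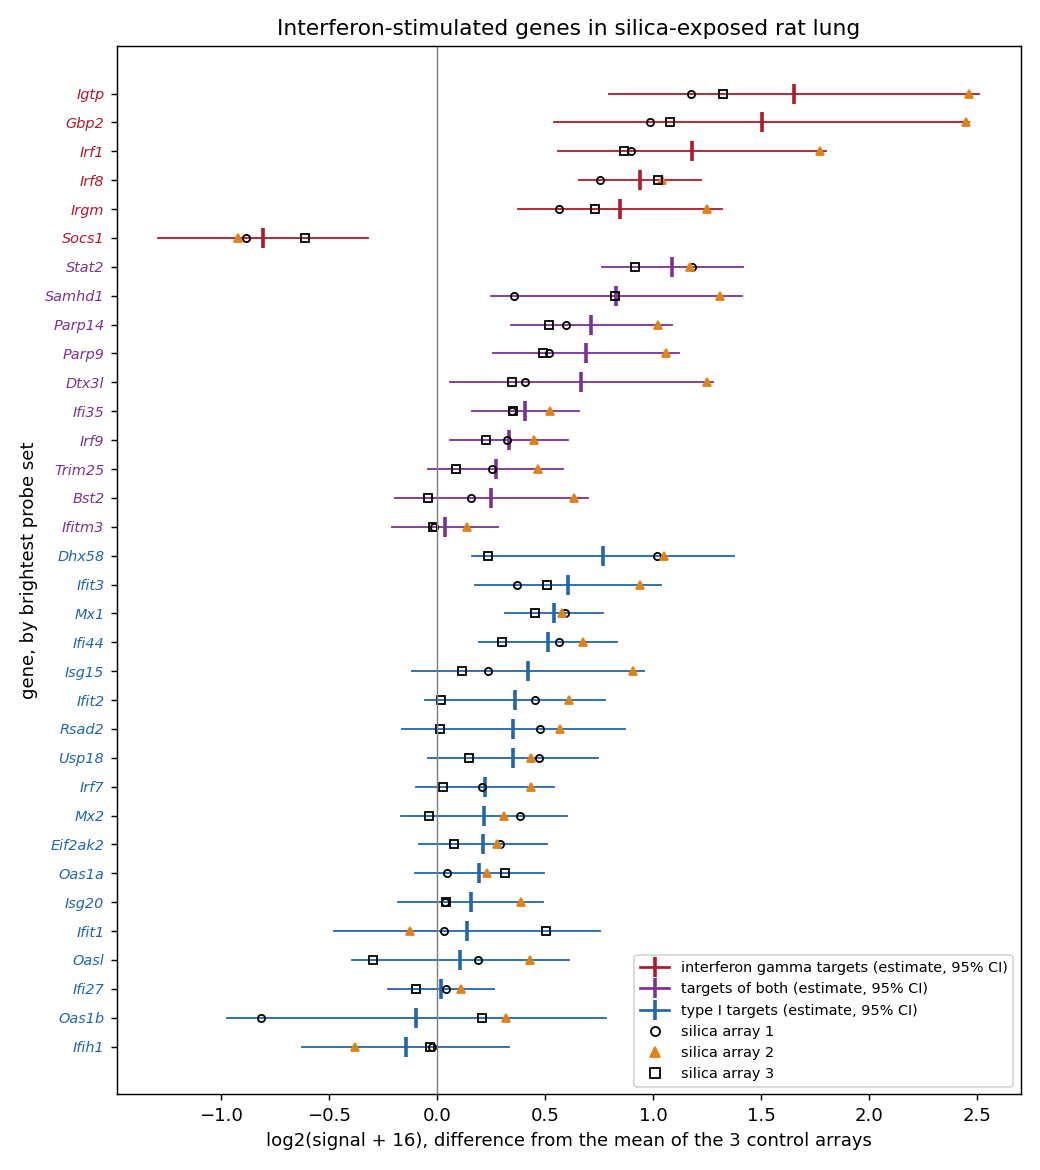
Each of the 34 genes is a row, with the 3 silica arrays as symbols and the fitted log2 fold change as a coloured tick with its 95% confidence interval; the x axis is the difference from the control mean in log2(signal + 16). Igtp and Gbp2 lie furthest to the right, most type I targets lie between 0 and 0.8, and silica array 2 (filled triangle) is highest in 25 of the 34 genes.

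The interferon gamma targets stood higher in silica lungs in 5 of 6 cases, with no overlap between the groups, as did 18.7% of all named genes. Irf8, a transcription factor of macrophages and dendritic cells, rose 1.92-fold. Its signal was 609.9, 585.3 and 636.4 in the control arrays and 1040.0, 1270.3 and 1255.4 in the silica arrays (log2 fold change 0.94 ± 0.12, adjusted p = 0.0399). The silica arrays were close to each other, and the lowest of them was well above the highest control.

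The other 4 had larger or similar fold changes and wider spread, and none passed the threshold. Igtp, an immunity-related GTPase of host membranes in the defence against intracellular microbes, had 1388.2, 1048.7 and 1098.6 in control and 2657.5, 6519.3 and 2944.8 in silica, a log2 fold change of 1.65 ± 0.35 (adjusted p = 0.103). A dimmer Igtp probe set had 1.12 ± 0.35 and its groups did not overlap either. Gbp2, a guanylate-binding protein of the same defence, had 1986.8, 1662.9 and 1688.8 in control and 3520.6, 9747.5 and 3757.1 in silica (1.50 ± 0.40, adjusted p = 0.149). In both genes silica replicate 2 was far above the other silica arrays, which themselves lay above all controls.

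Irf1, the transcription factor that interferon gamma induces first, had 1521.5, 1436.7 and 1533.3 in control and 2803.7, 5151.8 and 2733.3 in silica, a log2 fold change of 1.18 ± 0.26 (adjusted p = 0.105). Irgm, an immunity-related GTPase like Igtp, had 809.1, 711.7 and 817.7 in control and 1156.2, 1870.9 and 1300.3 in silica (0.85 ± 0.19, adjusted p = 0.117). Silica replicate 2 was again the highest. Socs1, the feedback inhibitor of Jak kinases, was dim, with 19.2, 32.6 and 40.5 in control and 8.8, 8.2 and 14.0 in silica (-0.81 ± 0.20, adjusted p = 0.135). Its fold change depended on the pseudocount, from -1.46 with a pseudocount of 1 to -0.34 with 64, and a further dim Socs1 probe set had -0.052 ± 0.26 with overlapping groups.

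The promoters of Irf8, Igtp and Irf1 are shown because they hold the binding letters of these pathways beside the genes with the smallest p among the gamma targets. Each is the 250 bases before the gene's start in RefSeq's rat assembly GRCr8, read in the direction of the gene: Irf8 at chr19:65699034-65699283 (plus strand), Igtp at chr10:42874797-42875046 (plus strand) and Irf1 at chr10:38417685-38417934 (plus strand). Capitals mark matches, on either strand, to the GAS core TTCNNNGAA or to the ISRE core, which is TTTC, any 2 bases and TTTC. N stands for any base.
Irf8: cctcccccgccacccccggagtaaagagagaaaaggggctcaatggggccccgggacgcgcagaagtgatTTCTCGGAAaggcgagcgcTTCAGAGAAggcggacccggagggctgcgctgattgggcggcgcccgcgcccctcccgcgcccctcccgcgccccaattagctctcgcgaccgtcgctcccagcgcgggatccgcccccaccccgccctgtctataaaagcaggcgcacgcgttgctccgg
Igtp: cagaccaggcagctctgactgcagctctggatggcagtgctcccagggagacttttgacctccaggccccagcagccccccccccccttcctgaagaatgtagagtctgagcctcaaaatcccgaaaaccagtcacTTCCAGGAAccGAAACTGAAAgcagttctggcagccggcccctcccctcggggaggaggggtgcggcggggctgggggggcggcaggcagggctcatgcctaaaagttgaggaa
Irf1: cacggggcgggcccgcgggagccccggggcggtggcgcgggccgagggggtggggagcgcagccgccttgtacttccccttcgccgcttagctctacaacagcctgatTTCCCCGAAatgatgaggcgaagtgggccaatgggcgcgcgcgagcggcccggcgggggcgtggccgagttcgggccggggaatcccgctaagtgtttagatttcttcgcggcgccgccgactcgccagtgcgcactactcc
Irf8 held 2 GAS cores and Irf1 held 1. In Igtp a GAS core and an ISRE core lay 2 bases apart.

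Genes that respond to both interferons came next, with a median log2 fold change of 0.54. In 8 of 10 every silica array lay above every control, which was so for 18.7% of all named genes. Stat2, which carries the type I signal to the nucleus, rose 2.13-fold. Its signal was 762.9, 883.3 and 706.2 in control and 1790.2, 1779.1 and 1485.0 in silica, a log2 fold change of 1.09 ± 0.13 (adjusted p = 0.0394). A further Stat2 probe set had 0.81 ± 0.14 (adjusted p = 0.0627), again without overlap. Silica replicates 1 and 2 were nearly equal on the brighter probe set, while on the further one replicate 2 was highest, with 1386.0, 1784.1 and 1345.5 in silica.

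Parp9 and Dtx3l, which work as a pair in interferon signalling and DNA repair, and their neighbour Parp14 had similar fold changes. Parp14, an ADP-ribosyltransferase, had 957.6, 945.2 and 944.4 in control and 1441.0, 1946.2 and 1365.5 in silica, a log2 fold change of 0.71 ± 0.15 (adjusted p = 0.104). Parp9 had 1484.8, 1477.0 and 1341.2 in control and 2053.8, 3004.9 and 2019.2 in silica (0.69 ± 0.18, adjusted p = 0.145). Dtx3l, the ubiquitin ligase of the pair, had 1567.0, 1470.0 and 1439.5 in control and 1982.1, 3565.3 and 1900.6 in silica (0.67 ± 0.25, adjusted p = 0.254). All 3 showed the same order, with replicate 2 highest and replicate 3 lowest. The starts of Parp9 and Dtx3l lie 1214 bases apart on opposite strands of chromosome 11, and Parp14 starts 87909 bases from Dtx3l.

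Ifi35, an interferon-induced leucine zipper protein, had 889.5, 956.0 and 881.8 in control and 1158.4, 1311.3 and 1164.4 in silica, a log2 fold change of 0.41 ± 0.10 (adjusted p = 0.139). Samhd1, which breaks down deoxynucleotides and so starves viruses of them, had 431 ± 19.6 in control and 806 ± 269 in silica (0.83 ± 0.24, adjusted p = 0.173), with no overlap. Irf9 and Trim25 had 0.33 and 0.27, also without overlap, and further probe sets of Parp14 and Irf9 had 0.43 and 0.47. The membrane proteins were the exceptions. Bst2, which tethers budding viruses to the cell, had a silica signal of 9492.6 in replicate 3, below every control, and 15189.7 in replicate 2. Ifitm3, which blocks viral fusion, had 0.034 ± 0.10, with a 95% confidence interval from -0.21 to 0.28.

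The promoters of Parp14 and Samhd1 are shown as the 2 of these genes with the smallest p that held a match, in the same form as above, at chr11:78407884-78408133 (plus strand) and chr3:166214411-166214660 (minus strand).
Parp14: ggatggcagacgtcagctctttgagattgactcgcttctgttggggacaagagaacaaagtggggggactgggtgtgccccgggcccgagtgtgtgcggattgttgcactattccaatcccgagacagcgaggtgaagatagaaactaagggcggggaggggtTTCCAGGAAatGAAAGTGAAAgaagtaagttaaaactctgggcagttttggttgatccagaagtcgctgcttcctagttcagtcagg
Samhd1: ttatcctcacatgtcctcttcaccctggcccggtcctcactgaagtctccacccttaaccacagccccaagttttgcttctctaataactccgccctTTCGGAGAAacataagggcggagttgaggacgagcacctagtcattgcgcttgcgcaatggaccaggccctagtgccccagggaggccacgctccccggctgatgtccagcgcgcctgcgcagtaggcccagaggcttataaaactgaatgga
Parp14 held a GAS core and an ISRE core 2 bases apart, the arrangement seen in Igtp. The windows of Stat2, Ifi35, Parp9, Dtx3l and Trim25 held neither core.

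Type I targets had the smallest median of the 3 lists. No member of the 18 passed the threshold, and in 5 every silica array lay above every control (Dhx58, Ifit3, Mx1, Ifi44 and Isg15), against 18.7% of all named genes. Their median log2 fold change was 0.22 and 16 of 18 were positive. At an unadjusted p under 0.05, limma gave 4 of the 18 higher and none lower, against 12.6% of all named genes higher and 7.24% lower.

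Mx1, a dynamin-like GTPase that blocks influenza and related viruses, was the most even of the 34 genes among the silica arrays. It had 975.4, 1005.0 and 1012.0 in control and 1509.5, 1496.0 and 1370.9 in silica, a log2 fold change of 0.54 ± 0.094 (adjusted p = 0.0691). Ifi44, an interferon-induced cytoplasmic protein, had 1154.7, 1068.5 and 1008.8 in control and 1598.5, 1724.4 and 1327.2 in silica (0.51 ± 0.13, adjusted p = 0.146). Ifit3, which binds its relatives that recognise foreign RNA caps, had 716.9, 849.7 and 698.1 in control and 976.1, 1455.0 and 1075.3 in silica (0.60 ± 0.18, adjusted p = 0.177). In all 3 genes the lowest silica array was above the highest control array.

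Dhx58, a regulator of the RNA sensors, had 362.1, 275.6 and 354.9 in control and 681.1, 696.0 and 389.9 in silica, a log2 fold change of 0.77 ± 0.25 (adjusted p = 0.206). Its 2 further probe sets had 1.32 ± 0.21 and 0.34 ± 0.16, so the probe sets shared a sign and differed in size. Usp18, which strips Isg15 from proteins, had 1267.6, 1321.3 and 971.7 in control and 1637.8, 1596.1 and 1301.9 in silica (0.35 ± 0.16, adjusted p = 0.335). Ifit2 had 2181.0, 1932.1 and 1988.6 in control and 2783.4, 3107.5 and 2057.2 in silica (0.36 ± 0.17, adjusted p = 0.345). For Usp18 and Ifit2 silica replicate 3 fell within the range of the controls.

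Isg15, the ubiquitin-like modifier of the interferon response, was highest in silica replicate 2, with 2094.5, 3348.8 and 1924.0 in silica against 1922.0, 1723.4 and 1696.0 in control. Without silica replicate 2 its log2 fold change was 0.17. Ifi27, a mitochondrial protein used as a blood marker of type I interferon, had 12957 ± 336 in control and 13120 ± 965 in silica (0.016 ± 0.10, 95% confidence interval from -0.23 to 0.26). The remaining antiviral effectors, Oas1a, Oasl, Rsad2, Mx2, Isg20, Eif2ak2 and the regulator Irf7, had log2 fold changes between 0.11 and 0.35 with overlapping groups. Further probe sets of Ifit2 and Mx2 had 0.096 and 0.38, also with overlap.

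Besides Socs1, the lowest fold changes among the 34 genes belonged to 2 type I targets. Ifih1, the sensor Mda5 of long double-stranded RNA, had 177.6, 152.9 and 245.7 in control and 185.3, 140.8 and 183.9 in silica, a log2 fold change of -0.15 ± 0.20 (adjusted p = 0.745). Oas1b, a relative of the RNA-activated enzyme Oas1a, was near the floor of the array, with 17.7, 25.8 and 7.3 in control and 2.2, 23.9 and 20.9 in silica (-0.098 ± 0.36, adjusted p = 0.918). Ifit1 was also dim, with 34.8 to 72.0 in control and 45.0 to 78.3 in silica. The groups overlapped in all 3 genes, and their signs turned under some alternatives.

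**Figure D2:**
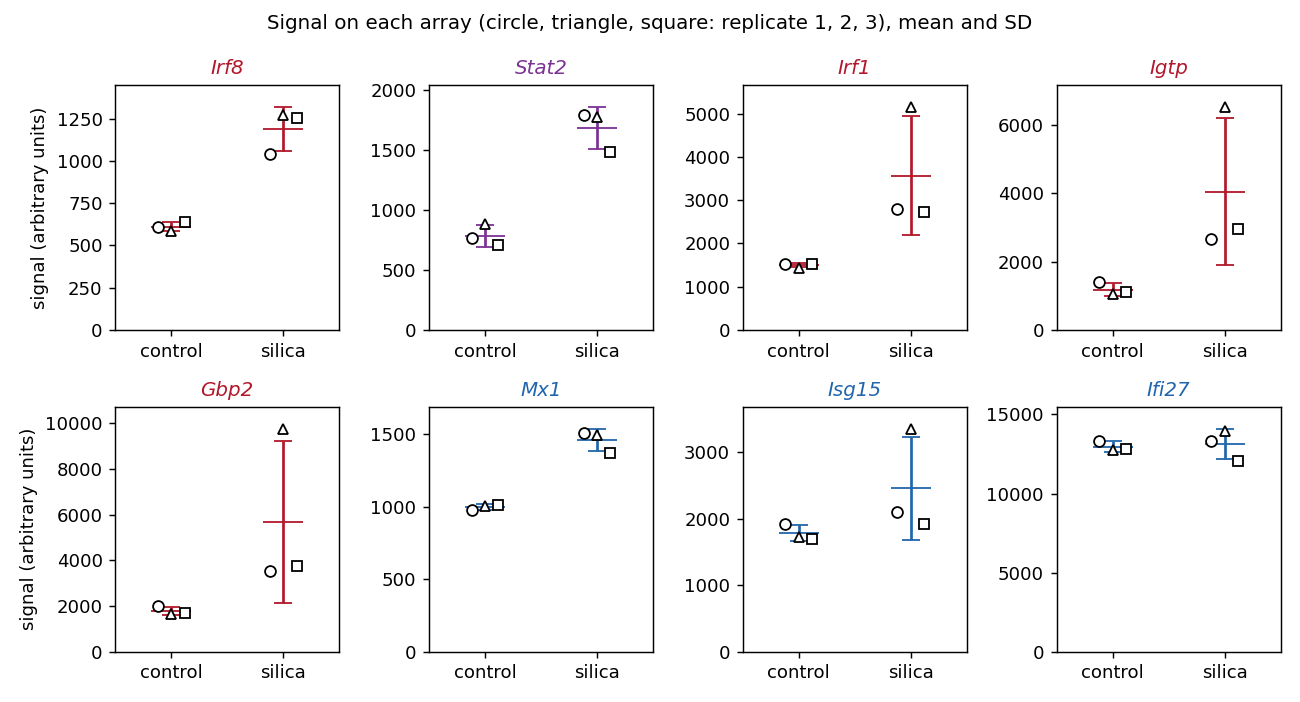
Linear signal on each array for 8 genes, control on the left and silica on the right of each panel, with circle, triangle and square for replicates 1, 2 and 3, a dash for the mean and bars for the SD (n = 3 animals). Irf8, Stat2 and Mx1 have tight silica groups, Irf1, Igtp, Gbp2 and Isg15 have replicate 2 far above the others, and in Ifi27 the groups overlap.

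The promoters of Ifi44 and Ifit3, whose groups did not overlap, are shown as the 2 type I targets with the smallest p that held a match. Each held 1 ISRE core and no GAS core. So did those of Irf7, Rsad2, Ifih1, Isg20 and Eif2ak2, whose groups overlapped. The promoter of Mx1, with the smallest p among the type I targets, held neither core in this window. The windows of Ifi44 and Ifit3 lie at chr2:243303841-243304090 (minus strand) and chr1:241527076-241527325 (plus strand).
Ifi44: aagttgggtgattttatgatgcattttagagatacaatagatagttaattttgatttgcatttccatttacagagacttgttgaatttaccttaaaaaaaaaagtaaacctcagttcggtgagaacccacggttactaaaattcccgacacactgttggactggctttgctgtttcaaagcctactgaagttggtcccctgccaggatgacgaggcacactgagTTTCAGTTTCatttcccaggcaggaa
Ifit3: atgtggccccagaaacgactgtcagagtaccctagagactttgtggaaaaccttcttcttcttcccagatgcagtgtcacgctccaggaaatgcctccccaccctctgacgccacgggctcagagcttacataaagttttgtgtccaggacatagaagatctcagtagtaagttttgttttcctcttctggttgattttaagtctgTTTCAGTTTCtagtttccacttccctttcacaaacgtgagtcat
The core lay 26 and 44 bases before the start of the gene, counted to its first base. Among all protein-coding promoters of this length, 3.23% of 19005 held an ISRE core and 7.22% a GAS core. The 13 type I targets with a promoter, Xaf1 included, held an ISRE core in 11 cases and a GAS core in 2. The 8 gamma targets, Gbp5 and Ifi47 included, held an ISRE core in 5 and a GAS core in 6, and the 10 targets of both held them in 3 and 5. Promoters of Mx2, Isg15, Ifit1, Ifit2, Usp18 and Dhx58 were not used here.

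Fold changes of members with and without a core overlapped. Measured members with an ISRE core had a median log2 fold change of 0.22 (n = 17) and those without had 0.67 (n = 11), and those with a GAS core had 0.52 (n = 12) against 0.38 without (n = 16). The ranges ran from -0.81 to 1.65 with an ISRE core and from 0.11 to 1.18 without. With a GAS core they ran from -0.81 to 1.65, and without from -0.15 to 1.50. The ISRE split follows the lists in part. An ISRE core was held by 11 of 13 type I targets, 5 of 8 gamma targets and 3 of 10 targets of both. The part of the lists in these medians was not tested. A GAS core followed after 2 bases by an ISRE core, the ISRE core here read as GAAA, any 2 bases and GAAA, was searched for on both strands after it was seen in Igtp. It was found in 6 of the 19005 promoters. Of the 31 member promoters, those of Igtp, Irgm and Parp14 held it.

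Type I and interferon gamma targets differed in how far they stood from control on each silica array. The median of the gamma targets was 1.06 and that of the type I targets 0.22, a gap of 0.84 on the log2 scale. On silica arrays 1, 2 and 3 the gamma targets had medians of 0.83, 1.51 and 0.94 above the control mean, and the type I targets 0.26, 0.43 and 0.094. The order was the same on every array, with gamma targets highest, targets of both next (0.35, 0.83 and 0.35) and type I targets lowest. Over all named genes the medians were 0.039, 0.018 and 0.022.

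This comparison is a description over 6 and 18 genes and carries no test. The gap ranged from 0.70 to 0.95 over 16 alternative settings, the lowest without silica replicate 2. The type I median was less stable. It was 0.13 with a covariate for RNA quality and 0.33 without silica replicate 3.

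**Figure D3:**
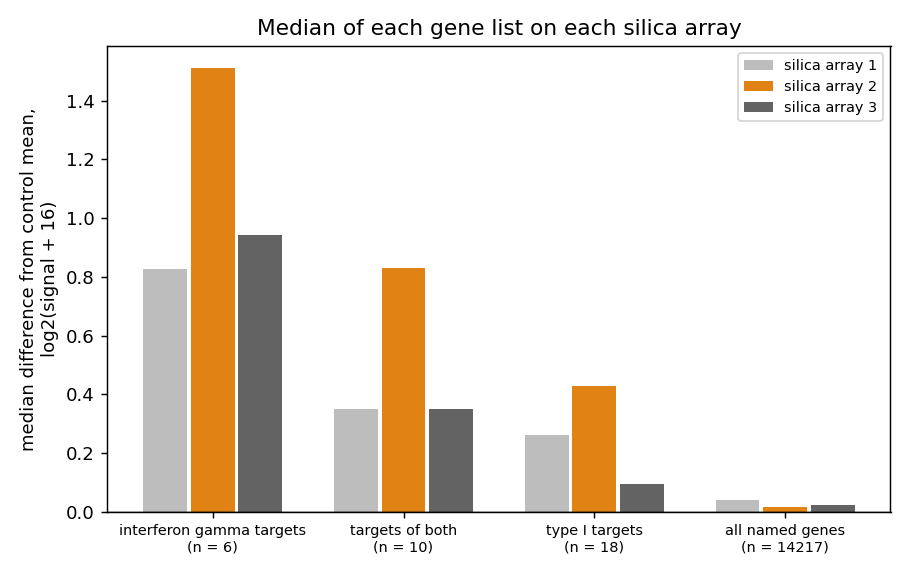
Bars give the median difference from the control mean, in log2(signal + 16), for each gene list on each of the 3 silica arrays, with the number of genes under each list. The gamma targets stand highest on every array, up to 1.51 on silica array 2, and the median of all named genes stays at 0.039 or below.

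The silica arrays differed from each other more than the control arrays did in most of these genes. Each array was 1 animal, so differences between animals and in RNA quality cannot be told apart. The SD of log2 signals was larger among silica arrays than among control arrays in 28 of 34 genes, 82.4% against 58.3% of all named genes. The median SD was 0.25 in silica and 0.11 in control, against 0.15 and 0.12 over all named genes. Gbp2 had the largest SD among silica arrays (0.82, against 0.14 in control), followed by Igtp (0.71 against 0.21), the dim Oas1b (0.62 against 0.43), Irf1 (0.52 against 0.051) and Dtx3l (0.50 against 0.063). Mx1 had the smallest, 0.076. Irf8 and Stat2, the 2 genes that passed the threshold, had 0.16 and 0.15.

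Silica replicate 2 was the highest silica array in 25 of the 34 genes, 73.5% against 34.3% of all named genes. It was highest in 5 of 6 gamma targets, 9 of 10 targets of both and 11 of 18 type I targets. The exceptions included Stat2, Mx1, Mx2, Usp18 and Eif2ak2, in which replicate 1 was slightly higher. Replicate 3 was the lowest silica array in 12 of 18 type I targets, 8 of 10 targets of both and 1 of 6 gamma targets, against 4641 of the 14217 named genes, and the difference between the lists was not tested. Without replicate 2 the number of genes with silica above every control was 18 of 34, against 24.2% of all named genes. Leaving out a silica array cannot lower this count, so it does not show how far the result rests on replicate 2. Without replicate 2 the median of the gamma targets was 0.88, and that of the targets of both 0.36.

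**Figure D4:**
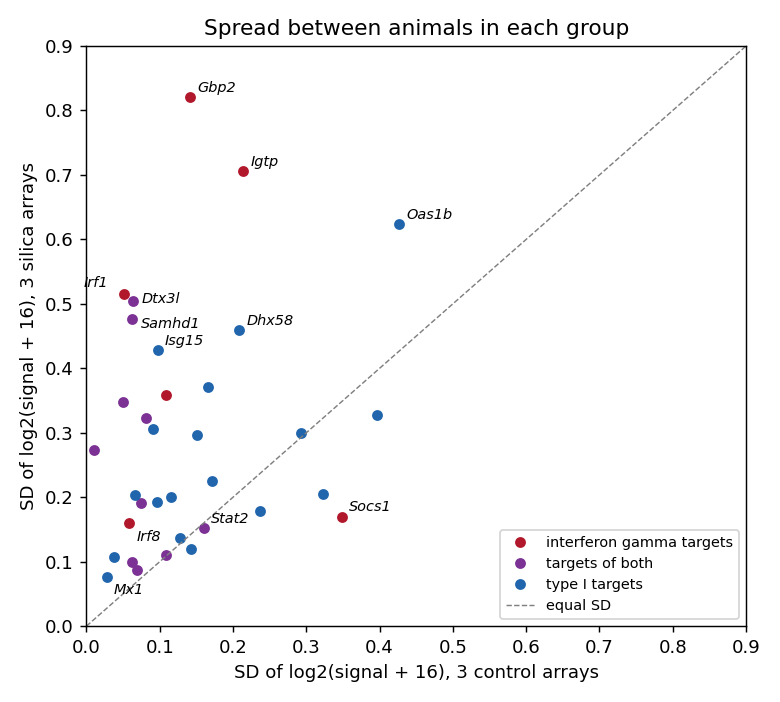
Each point is 1 of the 34 genes, with the SD of its log2(signal + 16) over 3 control arrays on the x axis and over 3 silica arrays on the y axis; the dashed line marks equal SD. Most points lie above the line, with Gbp2, Igtp and Irf1 among the highest, and Socs1 lies below it.

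Of 32 listed ligands, receptors, kinases and sensors upstream of these targets 19 were measured, and 2 rose, both on the sensing side, where 1.55% of all named genes rose. Sting1, the adaptor that relays signals from DNA in the cytoplasm, had 402.9, 351.9 and 449.1 in control and 863.2, 795.4 and 739.8 in silica, a log2 fold change of 0.97 ± 0.13 (adjusted p = 0.0411). Zbp1, a sensor of Z-form nucleic acid that is itself induced by interferon, had 187.3, 188.8 and 152.2 in control and 316.6, 408.1 and 351.8 in silica (0.96 ± 0.14, adjusted p = 0.0458). Sting1 was highest in silica replicate 1 and Zbp1 in replicate 2. The median of the 7 measured sensors and adaptors was 0.39. In 6 of them silica lay above control without overlap, against 18.7% of all named genes.

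The ligands gave little signal. Ifng, the gene of interferon gamma, had 24.8, 3.6 and 9.4 in control and 30.9, 50.2 and 25.4 in silica, a log2 fold change of 0.89 ± 0.31 (adjusted p = 0.226), so silica was above control by a margin of under 1 unit, and replicate 2 was the highest. Ifnb1, interferon beta, stayed between 1.3 and 6.1 on all arrays, where differences cannot be read. None of the 9 measured receptor and kinase genes passed the threshold, and their median log2 fold change was 0.025. Silica lay above control without overlap in 4 of the 9, against 18.7% of all named genes. These were the receptor chains Ifnar2 (0.28 ± 0.12), Ifngr2 (0.25 ± 0.12) and Il10rb (0.22 ± 0.088) and the kinase Tyk2 (0.39 ± 0.11, adjusted p = 0.155). Ifnlr1, the receptor chain of interferon lambda, lay below control without overlap (-0.32 ± 0.10, adjusted p = 0.195), as did 12.7% of all named genes. The groups overlapped in Ifnar1 (-0.24 ± 0.15), Ifngr1 (0.018 ± 0.097), Jak1 and Jak2.

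Several markers of white blood cells also rose, and their part in the result was not tested. Of 13 T and NK cell markers, all measured, 6 rose, while the groups overlapped in Cd4 (-0.0059). Over all named genes 1.55% rose. The summed signal of the 13 was 5258 to 5451 in control and 10333 to 11974 in silica. Silica replicate 2 was the highest silica array for 4 of the 13, among them the cytotoxic genes Gzmb and Prf1, while Cd3d and Cd3e were highest in replicate 3. Of 8 measured macrophage and monocyte markers out of 10, 3 rose (Cd68, Itgax and Mpeg1), while Cd163 (-0.45), Mrc1 (0.034) and Csf1r (0.10) had overlapping groups, with sums of 14603 to 15598 in control and 20858.5 to 22543 in silica. Neutrophil markers, 4 of 6 measured with none past the threshold, summed to 5267 to 6832.5 in control and 9274.5 to 15930.0 in silica, with the maximum in replicate 2. Most of this sum was S100a9, with 11972.2 in silica replicate 2, and the groups overlapped in Csf3r (0.48) and Camp (1.02). B cell markers (3 of 6 measured) and plasmacytoid dendritic cell markers (3 of 5 measured) had no gene past the threshold, with sums of 581 to 604 in control and 593 to 723 in silica for B cells. The dendritic cell list, which includes Bst2, summed to 15220.4 to 16345 in control and 14454 to 20582 in silica. No measured marker was at 0.

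Arrays had like medians but unlike RNA quality ratios. The medians lay between 7.38 and 7.42 on the log2 scale. The mean log2 ratio of 3-prime to 5-prime signal for beta-actin and GAPDH, which grows as RNA degrades, was 1.23, 1.20 and 0.996 in control and 1.67, 1.50 and 1.15 in silica, so silica replicate 3 fell within the control range and the other silica arrays above it. With this ratio as a covariate the median of the gamma targets was 1.08, against 1.06 without it. That of the type I targets was 0.13, against 0.22 without it. Stat2 then had a log2 fold change of 0.91 and Irf8 of 1.06. Neither passed the threshold, and nor did any other probe set on the arrays.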

How the data were processed

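Lung RNA of 6 rats was labelled with biotin as cRNA and hybridised to 1-colour short-oligonucleotide arrays, per the labels' protocols. The deposited values are linear signal intensities, scaled to a common trimmed mean per array as the values show. The sources used here do not name the software that summarised the probes. Probe sets were named from the platform annotation, with symbols updated by gene identifier to RefSeq (GRCr8); 20826 had 1 gene, of which 20758 matched, and the 57 control probe sets were left out. Values were analysed as log2(signal + 16) without further normalization. Groups came from the sample titles and were compared with limma 3.58.1 (lmFit, eBayes) in R 4.3.3 over 31042 probe sets with Benjamini-Hochberg adjustment at 0.05, with 4 residual and 2.18 prior degrees of freedom. With 3 animals against 3, the smallest p of an exact permutation test is 0.1. The fit was tested on simulated data.

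The members, lists and motifs were chosen with earlier results of these data known, so no test over a list was made. Values by array are given for members past the threshold, the 6 type I, 4 gamma and 4 shared targets with the smallest p, the 3 lowest fold changes and the 5 largest SDs among silica arrays; those of Isg15 were added after its values were seen. Promoter windows are the 250 bases before the start in RefSeq's table. Alternatives were quantile normalization, median centring, pseudocounts of 1 and 64, leaving out the dimmer 50%, an intensity trend with robust spread, a replicate block, array weights, an RNA quality covariate, the mean of a gene's probe sets and each array left out. The count of genes without overlap when silica replicate 2 is left out was added after seeing the data.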

Additional observations from a re-analysis of the deposited data

How the results depend on the processing

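The number of members higher in silica was 2 and depended on the setting. It was 13 without the dimmer 50% of probe sets, 12 with an intensity trend and robust spread, and 6 with a pseudocount of 64. Over all probe sets these settings gave 1044, 1141 and 707 higher, against 290. The number of members was 0 with a pseudocount of 1, with the replicate block and with the RNA quality covariate. Those settings left 39, 1 and 0 probe sets higher over the whole array. With each array left out in turn the number of members ranged from 0 to 0, and over all probe sets 0 to 12 were higher. The number of members was 2 with quantile normalization, median centring, array weights and the mean of all probe sets. No setting called a member lower. The medians kept their sign in all 16 alternatives, from 0.27 to 0.49 over the members, 0.13 to 0.33 for type I targets and 0.88 to 1.18 for gamma targets. Fold changes changed sign in some settings in 5 type I targets and Ifitm3. Under the RNA quality covariate Ifi27 had -0.068, Oasl -0.11, Ifih1 0.011 and Oas1b 0.13, and Ifi27 had -0.0034 with array weights. With each array left out in turn Ifi27 ranged from -0.031 to 0.074, Ifitm3 from -0.016 to 0.064, Oasl from -0.055 to 0.31, Ifih1 from -0.28 to 0.031, Ifit1 from -0.058 to 0.34 and Oas1b from -0.33 to 0.26. The cause was not tested.

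The replicate numbers were not shown to pair the animals. Same-numbered arrays had correlations of their deviations of 0.092, 0.035 and 0.088, though every array correlated best with its own number, a hint from the data and not the design. With the replicate block 0 members passed, where limma without it gave 2. Over all probe sets the block gave 1 higher, against 290 without it. At an unadjusted p under 0.05 limma without the block gave 16 members higher and 1 lower, against 12.6% and 7.24% of all named genes. No count with the block is given at that threshold. The 3 arrays per group and the dim signals of Socs1, Oas1b, Ifit1 and Ifng limit what can be read.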

Other observations

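The arrangement of a GAS core followed after 2 bases by an ISRE core was also present in the promoters of 3 genes outside the list: Irgm2, Ifgga2l2 and Stra8. Of these only Irgm2, an immunity-related GTPase gene like Igtp and Irgm, had a probe set annotated to it alone. Irgm2, named after its values were seen, had 3278.7, 2579.4 and 2523.9 in control and 6182.0, 10428.0 and 5543.1 in silica, with a log2 fold change of (1.35 ± 0.26, limma adjusted p = 0.0849). The groups did not overlap, silica replicate 2 was the highest array, and the gene did not pass the threshold.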
